A study of Caenorhabditis elegans with 12 samples.

Results

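The edited regions on the arms of chromosome IV of the nematode Caenorhabditis elegans were described. Neighbouring A-to-G sites of the table, of whichever strand, were joined into a region where no gap exceeded 1000 bp. Chromosome IV was divided into 3 stretches of equal length, taking its highest listed coordinate, 17335777, as its end, and the midpoint of a region set its place. Of the 2710 regions in the table, 493 lay on chromosome IV and 404 of these on its arms, 262 on the left arm (chrIV:1-5778592) and 142 on the right arm (chrIV:11557185-17335777); the other 89 lay in the centre. The rule used positions alone, so the scores, strands and neighbouring bases of the regions played no part in choosing them.

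The series comprised 12 RNA-seq libraries of wild-type worms of the laboratory strain Bristol N2, 6 mock and 6 RNase R. Every library came from ribosomal RNA-depleted total RNA, and each stage, embryo (stage 1), larvae labelled L1-L4 (stages 2 to 5) and Young Adult (stage 6), gave 1 mock library, kept at room temperature, and 1 library digested with RNase R, an exonuclease that enriches circular RNA. The site table carries no column for a library, so no site could be assigned to a stage or treatment, no SD or n over samples exists, and neither sequencing depth nor the edited share of reads is known. Each site has a strand, the 3 genome bases centred on it and a whole number, called the score here, whose meaning the authors do not state.

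ADAR enzymes bind double-stranded RNA and deaminate adenosine to inosine, which pairs like guanosine and is read as G in sequencing. Long RNA hairpins formed by inverted repeats, in which a sequence is followed by its reverse complement, are known substrates with many edited adenosines, and ADARs are known to prefer some neighbouring bases over others. In C. elegans the autosome arms recombine more and carry more repeats than the gene-dense centres.

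The sequences printed here were rebuilt from overlapping deposited triplets and show the site-rich regions at base level. They are written 5′ to 3′ on the named strand in lower case, with listed sites of that strand in capitals and with n for each base that no triplet covers. The first pair shows the region with the highest score of both arms, chrIV:4474474-4475397 on the left arm, as its upstream stretch (chrIV:4474960-4475143, minus strand) and the reverse complement of its downstream stretch (chrIV:4474727-4474910), in which a capital T stands opposite a listed A. Where both lines hold the same letter, the bases could pair within one transcript.
left arm, upstream stretch: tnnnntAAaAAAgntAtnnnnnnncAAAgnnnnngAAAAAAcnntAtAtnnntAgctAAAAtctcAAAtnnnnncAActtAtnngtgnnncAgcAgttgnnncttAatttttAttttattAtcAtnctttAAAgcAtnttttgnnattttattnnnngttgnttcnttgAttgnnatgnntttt
left arm, downstream stretch, reverse complement: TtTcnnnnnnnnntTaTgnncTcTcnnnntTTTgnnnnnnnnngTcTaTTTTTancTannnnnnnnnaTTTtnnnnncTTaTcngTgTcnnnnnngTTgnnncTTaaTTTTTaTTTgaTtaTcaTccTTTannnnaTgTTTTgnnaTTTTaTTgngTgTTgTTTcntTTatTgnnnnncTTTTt

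The right-arm region with the highest score, chrIV:13408445-13408935, is shown in the same way, with its upstream stretch at chrIV:13408756-13408836 and its downstream stretch at chrIV:13408551-13408631, minus strand.
right arm, upstream stretch: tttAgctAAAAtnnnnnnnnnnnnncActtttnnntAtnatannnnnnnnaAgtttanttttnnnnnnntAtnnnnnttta
right arm, downstream stretch, reverse complement: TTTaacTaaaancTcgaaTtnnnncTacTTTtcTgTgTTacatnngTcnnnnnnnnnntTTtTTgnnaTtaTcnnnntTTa

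A repeat that carried the same pattern of sites at 3 places of the left arm is shown next, on the minus strand, since it holds the highest score and lets matching adenosines be compared. The copies lie at chrIV:1655834-1655914, chrIV:3109183-3109263 and chrIV:4474818-4474898.
copy 1: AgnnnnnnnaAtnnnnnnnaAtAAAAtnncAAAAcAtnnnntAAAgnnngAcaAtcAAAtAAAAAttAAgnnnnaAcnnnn
copy 2: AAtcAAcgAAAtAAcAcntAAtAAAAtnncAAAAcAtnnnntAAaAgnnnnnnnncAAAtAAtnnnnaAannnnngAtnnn
copy 3: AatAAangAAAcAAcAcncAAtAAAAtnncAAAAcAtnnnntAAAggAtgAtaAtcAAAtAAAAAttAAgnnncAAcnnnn

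The right-arm region with the most sites, chrIV:16403696-16409911, held a tandem repeat, and 7 neighbouring units of 35 bp on the plus strand are shown from chrIV:16409631-16409875, because the same positions of the unit were listed again and again.
unit 1: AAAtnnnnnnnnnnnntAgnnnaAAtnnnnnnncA
unit 2: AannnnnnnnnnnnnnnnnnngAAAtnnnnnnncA
unit 3: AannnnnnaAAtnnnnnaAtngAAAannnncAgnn
unit 4: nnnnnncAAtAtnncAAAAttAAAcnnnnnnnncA
unit 5: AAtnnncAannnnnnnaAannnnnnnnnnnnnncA
unit 6: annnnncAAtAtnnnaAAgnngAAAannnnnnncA
unit 7: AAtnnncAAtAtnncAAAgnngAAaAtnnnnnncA

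Finally, the 20 bases on either side of the highest-scoring site are shown for 2 further left-arm regions. The first window, chrIV:2194673-2194713 on the plus strand, is centred on a site with a score of 36, and the second, chrIV:1734846-1734886 on the minus strand, on a site with a score of 32.
window 1: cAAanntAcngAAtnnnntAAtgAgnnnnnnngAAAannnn
window 2: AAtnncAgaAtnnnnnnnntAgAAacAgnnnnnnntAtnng

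The left arm carried more edited regions than the right arm of the same length. It had 45.3 regions per Mb and the right arm 24.6, against 15.4 in the centre of the chromosome and 39.5 on the arms of the other autosomes. Of the 404 arm regions, 262 or 64.9% were on the left (exact 95% interval 59.98 to 69.5%), which differed from an equal split (two-sided exact binomial test, p = 2.47e-09). In sites the arms differed further, with 9801 on the left and 3937 on the right, a ratio of 2.49 against 1.85 for regions. Regions lie close together and were counted as independent, so these p-values may be too small. Counted as 100 kb windows that held at least 1 region, 52 of 58 were occupied on the left and 41 of 58 on the right (ratio 1.27). The difference of these window counts from an equal split did not pass (exact binomial test, p = 0.2997), whereas occupied against empty windows differed between the arms (Fisher's exact test, p = 0.0185). No arm can exceed 58 windows and the left arm was near that limit, so the binomial test had little room to pass. The arms as a whole held 81.9% of the regions of chromosome IV (exact 95% interval 78.3 to 85.2%; exact binomial test against the share of length, p = 5.06e-14), but only 68.9% of its occupied windows, which did not pass (p = 0.648, exact binomial test; p = 0.254, Fisher's exact test of occupied against empty windows). The same limit on window counts left the binomial test of the arm share little room to pass. In the centre 42 of 58 windows were occupied, so the right arm held more regions than the centre in a similar number of windows.

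**Figure D1:**
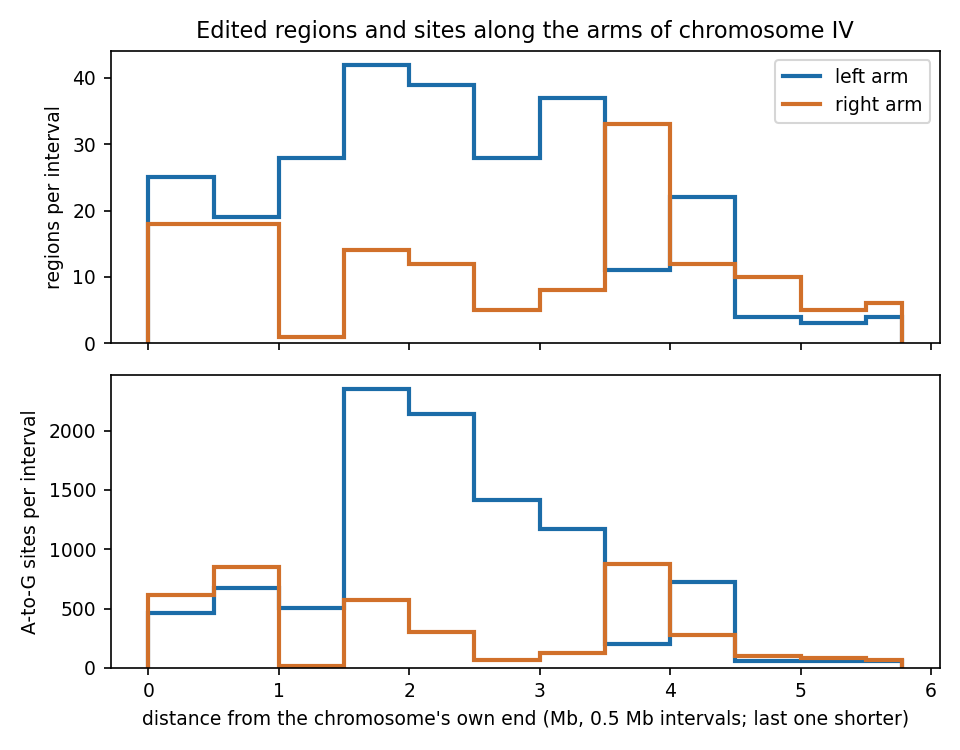
Regions (top) and A-to-G sites (bottom) per 0.5 Mb interval against the distance from the chromosome's own end in Mb, for the left arm (blue) and the right arm (orange) of chromosome IV; the last interval is shorter. The left arm peaks between 1.5 and 2.5 Mb, the right arm between 3.5 and 4 Mb. By sites, the right arm is nearly as high between 0.5 and 1 Mb.

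Both arms were uneven along their length, and at different distances from the end. On the left arm the interval from 1.5 to 2 Mb held 42 regions with 2348 sites, and the next, from 2 to 2.5 Mb, held 39 regions with 2139 sites. Without these intervals, a setting chosen after the data were seen, 181 left regions stood against 142 on the right (ratio 1.27, exact binomial test, p = 0.0343). These intervals were taken from the left arm only, while the test still assumed arms of equal length. The ratio of 1.27 therefore understates the left excess per Mb in this setting. Beyond 4.5 Mb the left arm was sparse, with 11 regions up to the border with the centre. On the right arm the fullest interval lay at 3.5 to 4 Mb from the end, with 33 regions and 875 sites, and the interval from 1 to 1.5 Mb held 1 region with 13 sites. The right-arm interval from 0.5 to 1 Mb held nearly as many sites as the fullest, 853, in 18 regions. The median distance of a region from its own chromosome end was 2.21 Mb on the left and 3.21 Mb on the right. Of the left regions 67.6% lay in the outer part of the arm, within 2.89 Mb of the end, against 47.9% of the right regions. At the borders the regions were small: the innermost left-arm region had 17 sites and its neighbour in the centre 4, the innermost right-arm region had 10 and its neighbour in the centre 8, and all 4 had a highest score of 1.

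A typical arm region was a short cluster. On the left arm a region held 4 to 430 sites with a median of 18 over a median span of 218.5 bp, and on the right arm 4 to 404 sites with a median of 15.5 over 122 bp. The centre had a median of 12 sites. A small number of regions held much of the editing: the 26 left regions with the most sites held 42.0% of the left sites, and the 14 largest right regions 40.4% of the right sites. There were 21 regions of at least 100 sites on the left and 5 on the right. Within regions, same-strand sites at most 100 bp apart formed 707 runs with a median of 12 sites over 88 bp, and 53.8% of the arm sites had another listed site on the adjacent base. This closeness of listed adenosines is what allowed stretches of sequence to be rebuilt: 31569 of 177581 spanned bases, or 17.8%, were known.

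Scores were low at most sites, and the high ones were mainly on the left. A score of 1 was given for 58.8% of left sites, 68.0% of right sites and 76.7% of centre sites. A score of 10 or more was reached by 324 left sites in 24 regions and by 22 right sites in 3 regions. At the level of regions, 68 of 262 on the left (26.0%) and 18 of 142 on the right (12.7%) had a site with a score of at least 5 (Fisher's exact test, adjusted p = 0.0110, Benjamini-Hochberg over 24 tests). That difference was 15.6% against 10.4% without the regions that share a pattern of sites with another region (Fisher's exact test, adjusted p = 0.704), and 21.5% against 12.7% without the interval from 1.5 to 2.5 Mb (adjusted p = 0.139, Fisher's exact test). It also did not pass when sites up to 5000 bp apart were merged, 26.4% against 14.4% (adjusted p = 0.116, Fisher's exact test). Nor did it with sites of a score of at least 2 alone, 47.3% against 29.4% (adjusted p = 0.147, Fisher's exact test). In these settings the percentages still lay apart, but fewer regions entered the test. Arm regions reached a score of 5 more often than those of the centre, 21.3% against 6.74% (Fisher's exact test, adjusted p = 0.00815), and more often had more sites than the median of all regions, 55.4% against 38.2% (Fisher's exact test, adjusted p = 0.0136). Without the regions that share a pattern, neither passed (both adjusted p = 0.534, Fisher's exact test). The same held when sites up to 5000 bp apart were merged (adjusted p = 0.0793 for score and 0.113 for sites, Fisher's exact test), with sites of a score of at least 2 alone (0.198 and 0.0614), without the interval from 1.5 to 2.5 Mb (0.0947 and 0.118) and for score among regions of at least 50 sites (0.581), all of which exceed the median in sites. Against the arms of the other autosomes, where 20.02% reached a score of 5 and 53.1% had more sites than the median, neither difference passed the test (adjusted p = 0.862 and 0.649, Fisher's exact test).

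**Figure D2:**
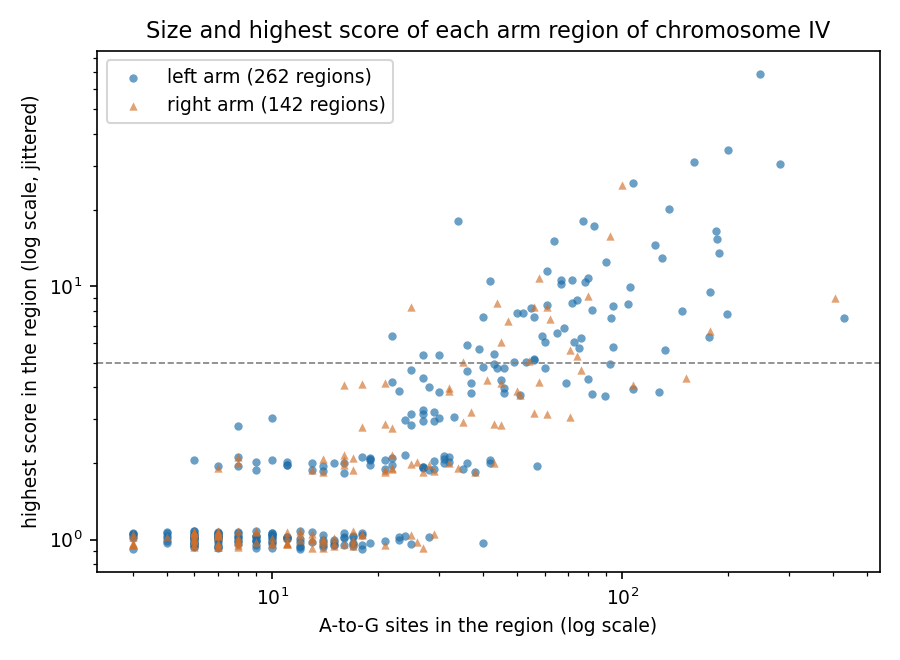
Each point is an arm region of chromosome IV, plotted by its number of A-to-G sites (log scale) and its highest score (log scale, jittered vertically so that equal scores can be told apart); left arm in blue, right arm in orange, with a dashed line at a score of 5. The left-arm region of 248 sites has the highest score, 67, and the largest region of each arm stays below 10.

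Large regions more often reached a score of 5: 65 of 81 arm regions of at least 50 sites did (80.2%), against 86 of all 404 (21.3%). The largest region of each arm was nevertheless not the one with the highest score. The region with the most sites, chrIV:2359946-2367672 on the left arm, had 430 sites over 7727 bp, 413 of them on the plus strand, and no score above 7. It held a long direct copy of itself: 90 known bases were identical and 1 differed at a distance of 3269 bp, over 1251 bp. On the right arm the largest region, chrIV:16403696-16409911, had 404 sites, 367 on the plus strand, with a median score of 2 and a highest score of 9. In its tandem repeat, printed above as 7 units, 66 known bases were identical and 5 differed at a distance of 35 bp, and the units held between 5 and 12 sites each. In all, 10 of the 404 arm regions, 7 on the left and 3 on the right, held at least 20 known bases identical at 1 fixed distance, from 1 to 3269 bp. At 1 bp these were equal neighbouring bases scattered over 389 and 478 bp of mostly unknown sequence, which does not show a repeat. No share for the centre or the other autosomes is given, and regions with many known bases pass more easily.

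The 4 highest regional scores were all on the left arm. Region chrIV:4474474-4475397 held 248 sites in 924 bp, 82 of them with a score of 10 or more, and its highest scores were 67 and 65 at neighbouring adenosines. In region chrIV:1733669-1734998, 273 of 282 sites were on the minus strand, 63 reached a score of 10 and the highest was 32. Region chrIV:2194498-2197163, with all of its 200 sites on the plus strand, reached 36, and region chrIV:1655689-1656823, with all of its 160 sites on the minus strand, reached 30. The right arm had 1 region above 16: chrIV:13408445-13408935, with 100 sites, 11 of them at 10 or more and a highest score of 25. Next on the right came chrIV:15641396-15643836, with 92 sites and a highest score of 16, and chrIV:13790169-13790764, with 58 sites and a highest score of 11. A small right-arm region, chrIV:13451948-13452075, had a median score of 4 over 25 sites, as high as the medians of the left regions of 248 and 282 sites.

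Plus and minus regions were close to even in number. Of the regions with sites on 1 strand, 114 were plus and 116 minus on the left (exact binomial test, p = 0.947), and 56 were plus and 71 minus on the right (exact binomial test, p = 0.214). Sites on both strands were listed in 32 left and 15 right regions, 11.6% of the arm regions of chromosome IV together, against 17.9% of the arm regions of the other autosomes (Fisher's exact test, adjusted p = 0.0110). That difference did not pass when sites up to 5000 bp apart were merged (20.7% against 26.2%, adjusted p = 0.266, Fisher's exact test), with sites of a score of at least 2 alone (4.67% against 9.12%, adjusted p = 0.198) and among regions of at least 50 sites (34.6% against 48.1%, adjusted p = 0.332, Fisher's exact test). It passed when merged at 500 bp and with shorter outer stretches as arms (adjusted p = 0.00940 and 0.0210, Fisher's exact test). It also passed without regions that share a pattern and without the interval from 1.5 to 2.5 Mb (adjusted p = 0.0414 and 0.00587, Fisher's exact test). The 47 regions with both strands held 4187 sites. Runs of plus and minus sites overlapped in 22 of the 32 left and in 7 of the 15 right regions, and 12 of the 15 right regions but 9 of the 32 left ones had at least 25% of their sites on the minor strand. The both-strand regions were smaller on the right, with a median of 32 sites against 76.5 on the left, so fewer minor-strand sites make up 25%. These contrasts were not tested. In the left region of 248 sites the strands differed in score: the 199 minus sites had a median of 6 and a highest score of 67, while the 49 plus sites had a median of 1 and a highest score of 2. The right region of 100 sites showed the same order, with a highest score of 25 for its 65 minus sites and 1 for its 35 plus sites. In the first of these regions 35 of the 49 plus sites and 106 of the 199 minus sites lay in inverted stretches, where a read can match the opposite strand of the other stretch; how such reads were placed is not given in the sources used here, so strand is uncertain there.

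Some of the largest regions could fold back on themselves as far as their letters are known. A region was called self-complementary where at least 20 pairs of known bases were complementary in an inverted arrangement on 1 strand. This describes letters, not a measured structure, and since a base is known only beside a listed site, regions with many sites are found more easily. It held for 26 arm regions, 22 on the left (8.40%) and 4 on the right (2.82%), against 1 of 89 in the centre and 130 of 1713 (7.59%) on the arms of the other autosomes. Among regions with sites on 1 strand the counts were 9 of 230 on the left and 1 of 127 on the right, a difference that did not pass (Fisher's exact test, adjusted p = 0.313). Close to the minimum, 3 regions had exactly 20 pairs and 4 had 18. The 26 regions held 4016 sites, 29.2% of those on the arms. Their inverted stretches had a median length of 162.5 bp, from 67 to 402 bp, and stood a median of 293.5 bp apart. Of the known positions compared, 886 or 95.3% were complementary and 44 were not, and 8 regions had no mismatch.

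Sites were denser in the inverted stretches, 20.2 per 100 bp, than between them, 7.41 per 100 bp, and this was so in 25 of the 26 regions; since pairs need listed sites, the numbers are a description only. The left region of 248 sites had the most pairs, 87 with 3 mismatches, in 2 stretches of 184 bp with 49 bp between them. The stretch between them held 1 site, while the stretches held 73 and 68. On the right, the region of 100 sites had 31 pairs and 4 mismatches in stretches of 81 bp. The longest stretches, of 402 bp, were found in chrIV:4058477-4059707 on the left arm, where 48 known pairs held no mismatch and all 186 sites were on the minus strand. Of the 44 mismatches, 16 placed A opposite C, a mismatch at which ADARs are known to edit efficiently, 18 placed a base opposite the same base, 3 placed G opposite T and 7 placed A opposite G or C opposite T. Bases are known only beside listed adenosines, so mismatches with A are found more easily. No expected count is given, and whether the mismatched A was itself a listed site was not tested.

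**Figure D3:**
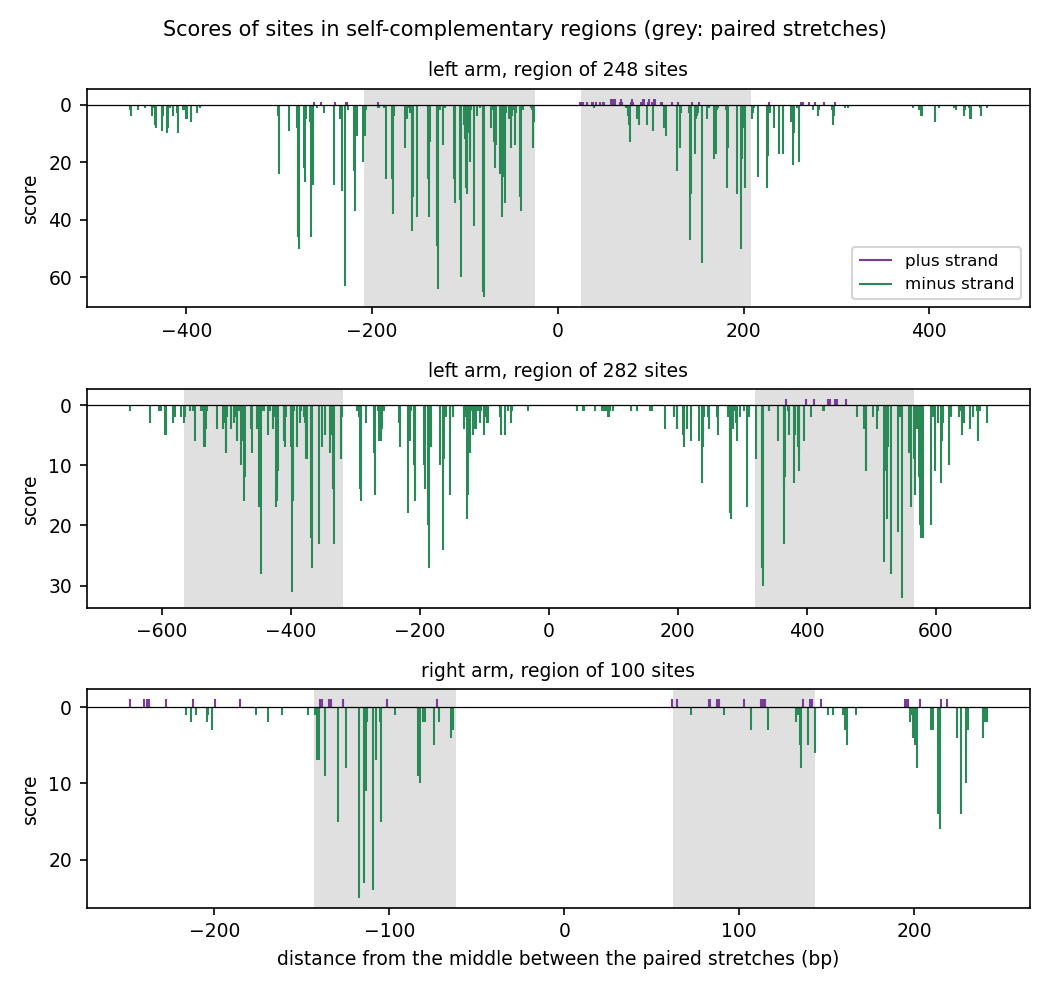
Score of each A-to-G site against its distance in bp from the middle between the inverted stretches (grey), for 2 left-arm regions and 1 right-arm region of chromosome IV; plus-strand sites point up (purple) and minus-strand sites down (green). High scores are on the minus strand in all 3, both inside the stretches and just outside them, and the gap between the stretches of the 248-site region is nearly empty. In the left-arm region of 282 sites, high scores also lie between the stretches, where 114 sites are listed.

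Patterns of sites recurred between regions. A pattern is 8 consecutive same-strand sites with the same triplets and the same spacing, found again in another region of the table on either strand, as copies of a repeat would give. It was found in 44 of 262 left regions (16.8%) and 8 of 142 right regions (5.63%; Fisher's exact test, adjusted p = 0.00815), and in 0 of 89 in the centre (exact 95% interval up to 4.06%). A match counts both regions of a pair, and 28 left regions but 0 right ones had a partner on their own arm. The regions were therefore not independent, and the p-values for this feature may be too small. For both arms together, 52 of 404 or 12.9%, the difference from the centre passed (Fisher's exact test, adjusted p = 0.000701), while that from 11.9% on the arms of the other autosomes did not (adjusted p = 0.862, Fisher's exact test). The difference from the centre did not pass with sites of a score of at least 2 alone, 11 of 214 against 0 of 29 (adjusted p = 1, Fisher's exact test). Nor did it among regions of at least 50 sites, 36 of 81 against 0 of 5 (adjusted p = 0.344, Fisher's exact test). The centre count was 0 in both settings, its lowest possible value, and with so few centre regions these tests could not decide. Regions that shared a pattern were large, with a median of 68 sites against 14 in the rest, and 310 of the 404 regions had a run long enough to be compared; of those, 21.3% shared a pattern on the left and 7.77% on the right. The left-right difference was 13.3% against 5.63% without the interval from 1.5 to 2.5 Mb (adjusted p = 0.118, Fisher's exact test). It also did not pass when sites up to 5000 bp apart were merged (adjusted p = 0.113, Fisher's exact test). With sites of a score of at least 2 alone it was 11 of 146 against 0 of 68 (adjusted p = 0.147, Fisher's exact test), where the right count could not be lower. Among regions of at least 50 sites it was 30 of 60 against 6 of 21 (adjusted p = 0.505, Fisher's exact test). Within chromosome IV there were 24 pairs of arm regions with a common pattern, 19 of them left with left, 5 left with right and 0 right with right; 11 were in the same orientation and 13 in the opposite one. Outside the arms of chromosome IV there were 72 partner regions, 70 of which lay on arms. Most regions lay on arms in any case: of all 2710, 1713 were on the arms of the other autosomes and 404 on those of chromosome IV. Whether partners lay on arms more often than other regions was not tested.

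The repeat printed above in 3 copies joins the largest of these pairs. Its copies lie in left-arm regions of 160, 55 and 248 sites and shared 12 listed adenosines within 24 bp. Over these adenosines the score ran from 1 to 22 with a median of 5 in copy 1, from 1 to 8 with a median of 3 in copy 2, and from 2 to 67 with a median of 23 in copy 3. The TAA site 22 bp after the first shared site scored 22, 6 and 67 in copies 1, 2 and 3. The AAC site at 13 bp scored 1, 1 and 2. This site was the lowest, or level with the lowest, in every copy, and the levels of the copies overlapped. Depth over each copy is unknown, so the part of RNA abundance in the level was not tested. How reads that match several copies were placed is not given in the sources used here, so the score of a single copy is uncertain.

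Neighbouring bases followed the same order on both arms. On the strand of the site, G stood before 9.10% of left and 9.68% of right sites and after 17.1% and 16.8%, a gap of 7.97 and 7.14 percentage points. C showed the opposite, before 15.3% and 15.6% and after 7.23% and 7.19%. A was the commonest neighbour, with 49.5% and 50.2% before and 52.3% and 54.7% after. Counted by region, G was more often after than before the site in 202 left regions and less often in 26 (exact sign test, p = 6.06e-35), and in 101 against 23 on the right (exact sign test, p = 7.47e-13). The share of such regions, 88.6% and 81.5%, did not differ between the arms past the threshold (Fisher's exact test, adjusted p = 0.262). Since 52 of the 404 arm regions shared a pattern of sites, regions were not fully independent and the sign-test p-values may be too small. Without the genome the base composition around unlisted adenosines is not known, so these shares are not enrichments. The centre, with G before 10.2% and after 20.7% of its sites, had the same order.

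**Figure D4:**
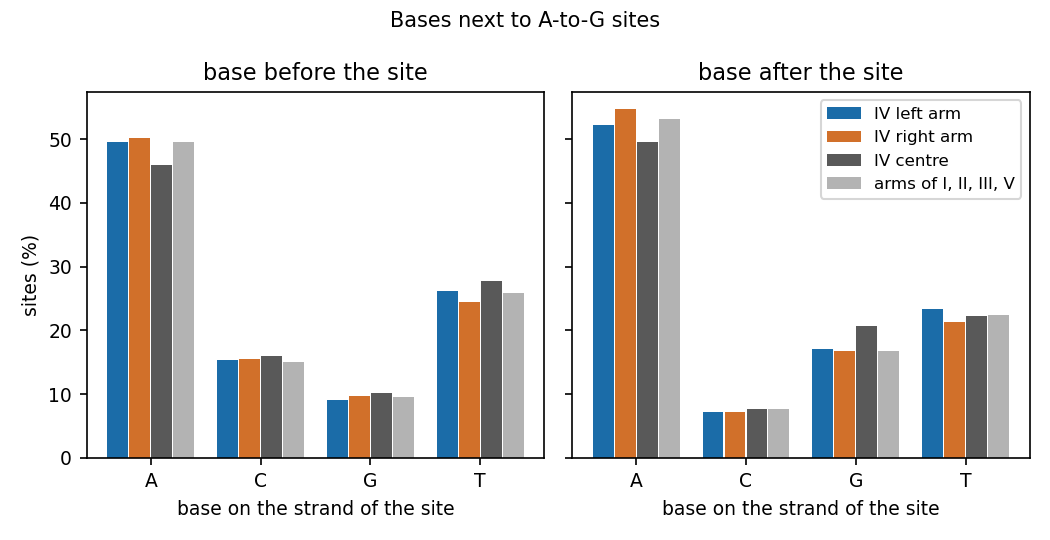
Percent of A-to-G sites with each base directly before (left panel) or after (right panel) the site on its own strand, for the left arm, right arm and centre of chromosome IV and the arms of the other autosomes. G is more frequent after than before, C more frequent before than after, in all 4 groups.

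Within runs the score depended on the neighbours as well. In 86 regions, 68 on the left and 18 on the right, with a run that reached a score of 5, sites with a given neighbour were set against the other sites of their run, as a difference of mean log2 scores. Only 48 of the 86 regions shared no pattern of sites with another region. The regions were therefore not independent, and the SE and p-values may be too small. Sites after T were higher by 0.34 ± 0.04 (SE over regions), in 75 of 86 regions (exact sign test, adjusted p = 5.90e-12, Benjamini-Hochberg over 8 tests). Sites after G differed by -0.30 ± 0.05 and were lower in 66 of 85 regions (exact sign test, adjusted p = 1.22e-06), and sites after C by -0.14 ± 0.04, lower in 62 of 85 (exact sign test, adjusted p = 7.39e-05). A as the base before made no difference past the threshold, with 43 regions higher and 43 lower. For the base after the site, G went with higher scores, 0.17 ± 0.04 in 62 of 86 regions (exact sign test, adjusted p = 0.000102). C and T after the site went with lower ones, -0.18 ± 0.06 in 57 of 80 and -0.17 ± 0.05 in 58 of 86 (exact sign test, adjusted p = 0.000293 and 0.00214). A after the site was higher by 0.09 ± 0.03 in 53 of 86 regions (exact sign test, adjusted p = 0.0455), a call that only 3 of 9 alternatives kept. Without the interval from 1.5 to 2.5 Mb the tests of G, T and A after the site missed the threshold (adjusted p = 0.127, 0.0836 and 0.0530, exact sign test), and with sites of a score of at least 2 alone so did those of C, T and A (0.0758, 0.0503 and 0.672). No base differed between the arms past the threshold (lowest adjusted p = 0.379, Fisher's exact test).

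By triplet, TAG sites stood highest in log2 score relative to their run, with a mean difference of 0.45 over 282 sites, and TAA sites followed with 0.31 over 667 sites. GAC sites stood lowest, at -0.51 over 48 sites, and GAT sites at -0.48 over 109. The highest site of the 100-site right region and that of the left region of 282 sites were both TAG, and the site with a score of 67 was TAA. Other regions had no T before their highest site. The left-arm site with a score of 36 was AAT, and the right-arm sites with scores of 16 and 11 were CAA and AAA.

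**Figure D5:**
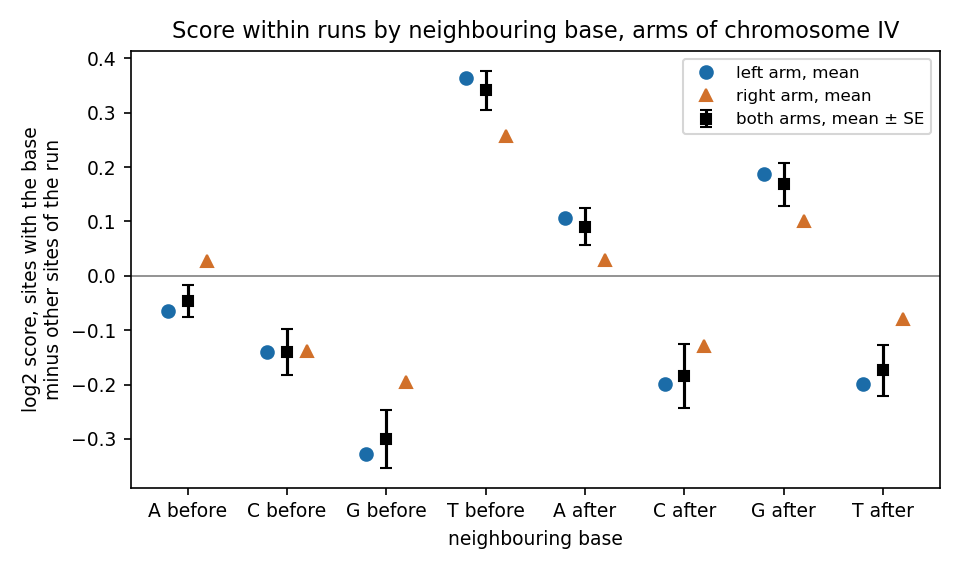
Mean difference in log2 score between sites with a given neighbouring base and the other sites of the same run, averaged over arm regions; squares with bars give both arms (mean ± SE over up to 86 regions), circles the left and triangles the right arm. T before the site stands highest and G before the site lowest in both arms.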

How the data were processed

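The authors deposited 1 table of C. elegans A-to-G sites for the whole series, without a header and without a column for a library. Its values are, per the file's layout, 1-base positions, the genome triplet, a strand and a whole number in the score column; what this deposited score counts is not stated, and the caller, its filters and the genome build were likewise not given in the sources used here. This score was not treated as a read count. A second, human table was not analysed here. Coordinates are those of the deposited table, 1-based; they could not be placed on the WBcel235 annotation, so no gene is named.

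Sites at most 1000 bp apart were merged into regions, and same-strand sites at most 100 bp apart into runs. Sequences were rebuilt from overlapping triplets. Self-complementary stretches needed 20 known pairs, with a penalty of 3 per mismatch and a loop of at least 3 bp; a shared pattern needed 8 consecutive sites. Counts were tested with two-sided exact binomial and sign tests and Fisher's exact test (scipy 1.17.1, Python 3.11.15, numpy 2.4.6), with Benjamini-Hochberg adjustment over 8 features and 3 comparisons, or over 8 base positions, at a threshold of 0.05. Intervals are exact 95% (Clopper-Pearson) intervals and cover the counting error of regions only. The procedures were tested on simulated data. Named regions are, in each arm, the 5 with the most sites, the 3 with the highest score and the 3 with the highest median score among those of at least 15 sites, which gave 6 on the left and 9 on the right; self-complementary regions and holders of printed sequences are named too. The members, lists and tests were chosen with earlier results of these data known. Alternatives were other merging distances, scores of at least 2, no regions that share a pattern, shorter outer stretches as arms, 100 kb windows, other score and pair minimums and, added after the data were seen, regions of at least 50 sites, no 1.5 to 2.5 Mb interval and both-strand regions among the self-complementary ones.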

Additional observations from a re-analysis of the deposited data

How the results depend on the processing

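The excess of left over right regions passed under 7 of 8 alternatives (ratio 1.27 to 2.86 over all 8) and not as 100 kb windows (ratio 1.27), and more G after than before the site under all 7 (84.4 to 89.6% of regions). The ratio and test without the interval from 1.5 to 2.5 Mb took no account of the shorter left arm. The arm share of chromosome IV was not past the threshold in 100 kb windows (68.9%). Left arm, right arm and centre have 58 windows each, so window counts are capped. Both binomial tests of windows had little room to pass. Plus regions were 50.8% on the left when merged at 500 bp, and 51.8% on the left and 52.3% on the right with scores of at least 2 (right arm 50% among regions of at least 50 sites, and below an even share in the other settings); no strand test passed in any of these. Of the 8 base positions 7 passed, but 4 did with scores of at least 2 and 4 without the interval from 1.5 to 2.5 Mb; A after the site passed in 3 of 9 alternatives. The 2 features that differed between the arms became 0 when merged at 5000 bp, with scores of at least 2, among regions of at least 50 sites and without that interval. Without regions that share a pattern, the shared pattern drops out by definition and could not be tested. The other feature, a score of at least 5, did not pass there. The 3 features that differed between arms and centre became 1 when merged at 5000 bp, 0 with scores of at least 2, 0 among regions of at least 50 sites and 1 without that interval. Without regions that share a pattern, the shared pattern again could not be tested, and neither score nor number of sites passed. With scores of at least 2 and among regions of at least 50 sites, the centre had 0 regions with a shared pattern. It was too small there for that test to decide. The 1 feature that differed from other autosomes became 0 when merged at 5000 bp, with scores of at least 2 and among regions of at least 50 sites. Fewer regions enter these settings; the cause of each loss was otherwise not tested. Of 277 alternatives of single features and bases, 243 left the result on its side of the threshold and 34 did not, and 31 changed sign with neither value past the threshold. No paired analysis was possible because the table does not separate libraries, and for the same reason no library could be left out. Unknown depth limits every score, and an adenosine that is not listed is not shown to be unedited.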
